A study of Mus musculus with 6 samples.

Results

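The 44 genes described here are interferon-stimulated genes, transcripts that type I or type II interferon induces. Their membership goes by name and uses no cut on a level or a difference. The list was, however, chosen with earlier results of these data known, so counts and medians over it are descriptive. All 44 symbols were found among the 54532 identifiers of the deposited tables, through the symbols of GENCODE vM21. Of them, 38 had a mean of at least 0.5 FPKM over the 6 libraries and entered the test with 11672 genes in all, and 6 did not (Ifit2, Tgtp1, Tgtp2, Gbp6, Rsad2 and Ifi44). FPKM is a count of fragments divided by exon length and by a library scale, so it allows levels to be compared between genes. The closest member inside that filter was Cxcl10 with a mean of 0.548 FPKM, and the closest outside was Ifit2 with 0.472 FPKM.

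The libraries came from liver of untreated mice, 3 from wild-type animals (WT) and 3 from animals labelled as a liver-specific knockout of Arid2 (LKO). ARID2 is a subunit of the PBAF chromatin remodelling complex, and the title of the series names hepatic steatosis and the ubiquitination of the kinase JAK2 as its subject. The sources used here do not give the driver of the deletion, the strain, the age, the number of cells that keep Arid2, or whether each library came from a separate mouse, so the spread behind each p-value is that of these samples and may be technical. Triplets of values are in the order of replicates 1 to 3. Between 13947787 and 18159285 reads were recovered per library. Both libraries numbered 1 stood apart from the other 4 on the first principal component, which held 43.7% of the variance. Arid2 itself was at 2.65, 1.74 and 1.79 FPKM in WT and 2.55, 1.33 and 2.04 FPKM in LKO, with overlapping groups. These values cover the whole gene and the deleted part is not given, so they could not check the genotype labels, and WT and LKO below stand for what the libraries are labelled. Hepatocyte transcripts were abundant in every library, with albumin (Alb) between 24009.6 and 44282 FPKM.

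Type I interferons bind the receptor IFNAR and act through the kinases JAK1 and TYK2, which activate the complex ISGF3, to which STAT2 and IRF9 belong and which binds interferon-stimulated response elements (ISRE) in promoters. Interferon gamma, the type II interferon, acts through IFNGR, JAK1 and JAK2, and its response runs through GAS elements and IRF1. In liver, hepatocytes and the cells of the sinusoids both respond, and many of these genes keep a low level without infection.

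In the libraries labelled LKO, the interferon-stimulated genes tended to lie lower, but no single one passed the test. Of 38 members tested, 0 rose and 0 fell (limma-trend, Benjamini-Hochberg adjusted p under 0.05 over all 11672 genes), where 0.0428% of all genes were called, 0.00857% as risen and 0.0343% as fallen. The lowest adjusted p among members was 0.131, for Apol9a. At an unadjusted p under 0.05, 6 members lay lower and 0 higher, which is 15.8% of the members for the lower side, against 4.93% of all genes lower and 4.28% higher. For 8 members every LKO library lay below every WT library, which is 21.1% of the 38, against 7.42% of all genes tested. For 0 members every LKO library lay above every WT library, against 934 of all 11672 genes, and over both directions 15.4% of all genes had groups that did not overlap. The 8 were Apol9a, Apol9b, Ifi27, Irf7, Ifi47, Ifit1, Ddx58 and Cmpk2. In a design of 3 against 3, an exact permutation test of a single gene cannot go under p = 0.1.

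The median log2 difference (LKO minus WT, on the log2(FPKM + 1) scale, which understates changes of low genes) of the 38 tested members was -0.24, against 0.035 over all genes tested, and 30 of 38 were below 0, against 45.9% of all genes. Over all 44 members with no filter the median was -0.16, without LKO replicate 2 it was -0.16, and over the 19 tested members with under 5% of shared transcript stretches it was -0.16. It was -0.41 with a pseudocount of 0.1, which understates low genes less, and -0.43 with voom on the recovered reads. The member medians of log2(FPKM + 1), each gene centred on its mean of the 6 libraries, were 0.16, 0.13 and 0.11 in WT and -0.026, -0.26 and -0.22 in LKO, so on this summary all LKO libraries lay below the WT libraries and LKO replicate 1 lay closest to them. The count of non-overlapping members was set partly by that library. Without LKO replicate 1, 16 of 38 lay below and 2 above, where 17.3% of all genes were below and 21.1% above. Without both libraries numbered 1, 18 lay below and 3 above, where 21.6% were below and 25.2% above. Scaled to library totals, 10 members lay below, where 8.87% of all genes were below and 5.40% above. The 2 tested members with an LKO mean under 0.5 FPKM, Ifit3b and Cxcl10, passed the filter through their WT values. Fewer cells of a type and less RNA per cell cannot be told apart in these bulk samples.

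**Figure D1:**
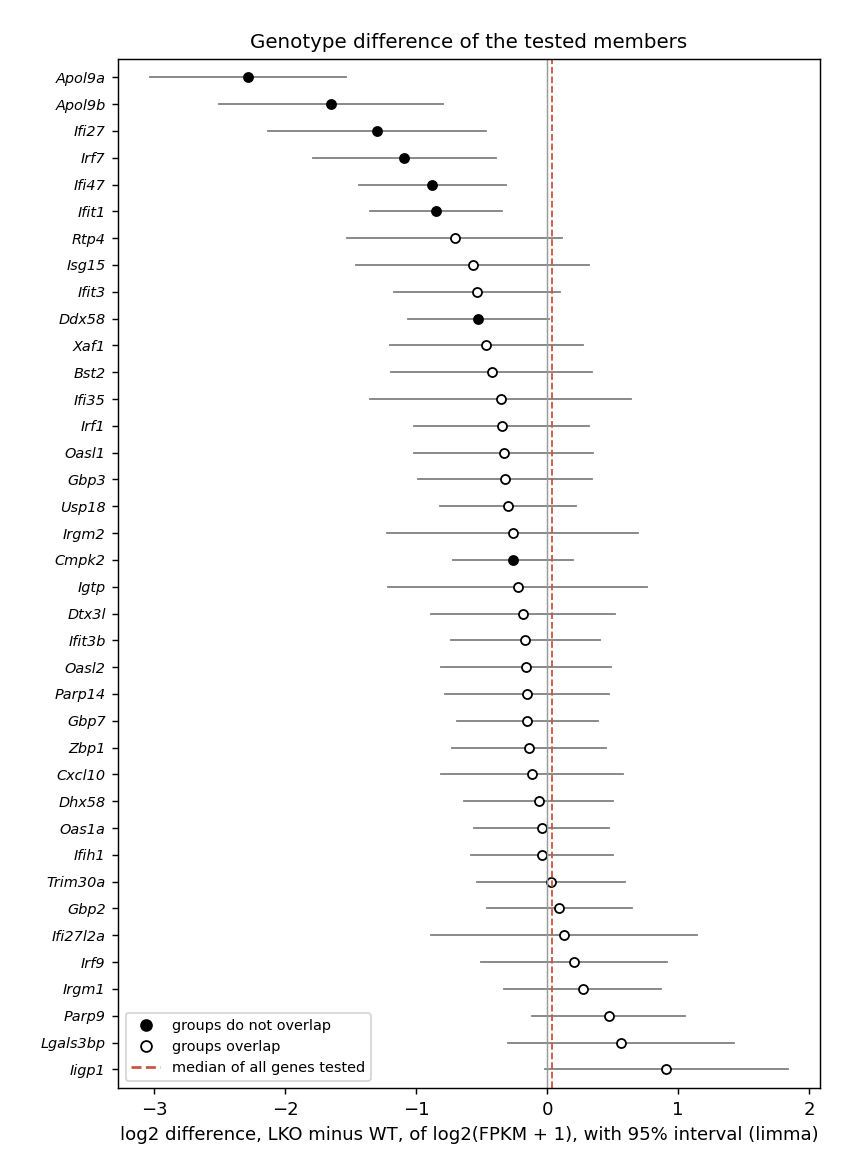
Log2 difference between LKO and WT for each of the 38 tested members (points) with its 95% interval from limma (lines), on the log2(FPKM + 1) scale. Filled points mark the 8 members whose groups do not overlap, all to the left of 0, and the dashed line is the median of all genes tested (0.035).

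The levels spanned a wide range. Averaged over the WT libraries, 11 members were under 1 FPKM, 26 between 1 and 10 FPKM, and 7 above 10 FPKM. Bst2, which encodes tetherin, a membrane protein that holds budding virus particles at the cell surface, was the highest at 162 ± 39.7 FPKM (mean ± SD, n = 3). Apol9b (72.2 ± 24.1 FPKM) and Iigp1 (62.4 ± 7.13 FPKM) followed, and their ranges in WT overlapped each other. Bst2, Apol9b and Iigp1 made up 62.9% of the summed WT level of all 44, so any sum over the members is mainly a sum over these genes.

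**Figure D2:**
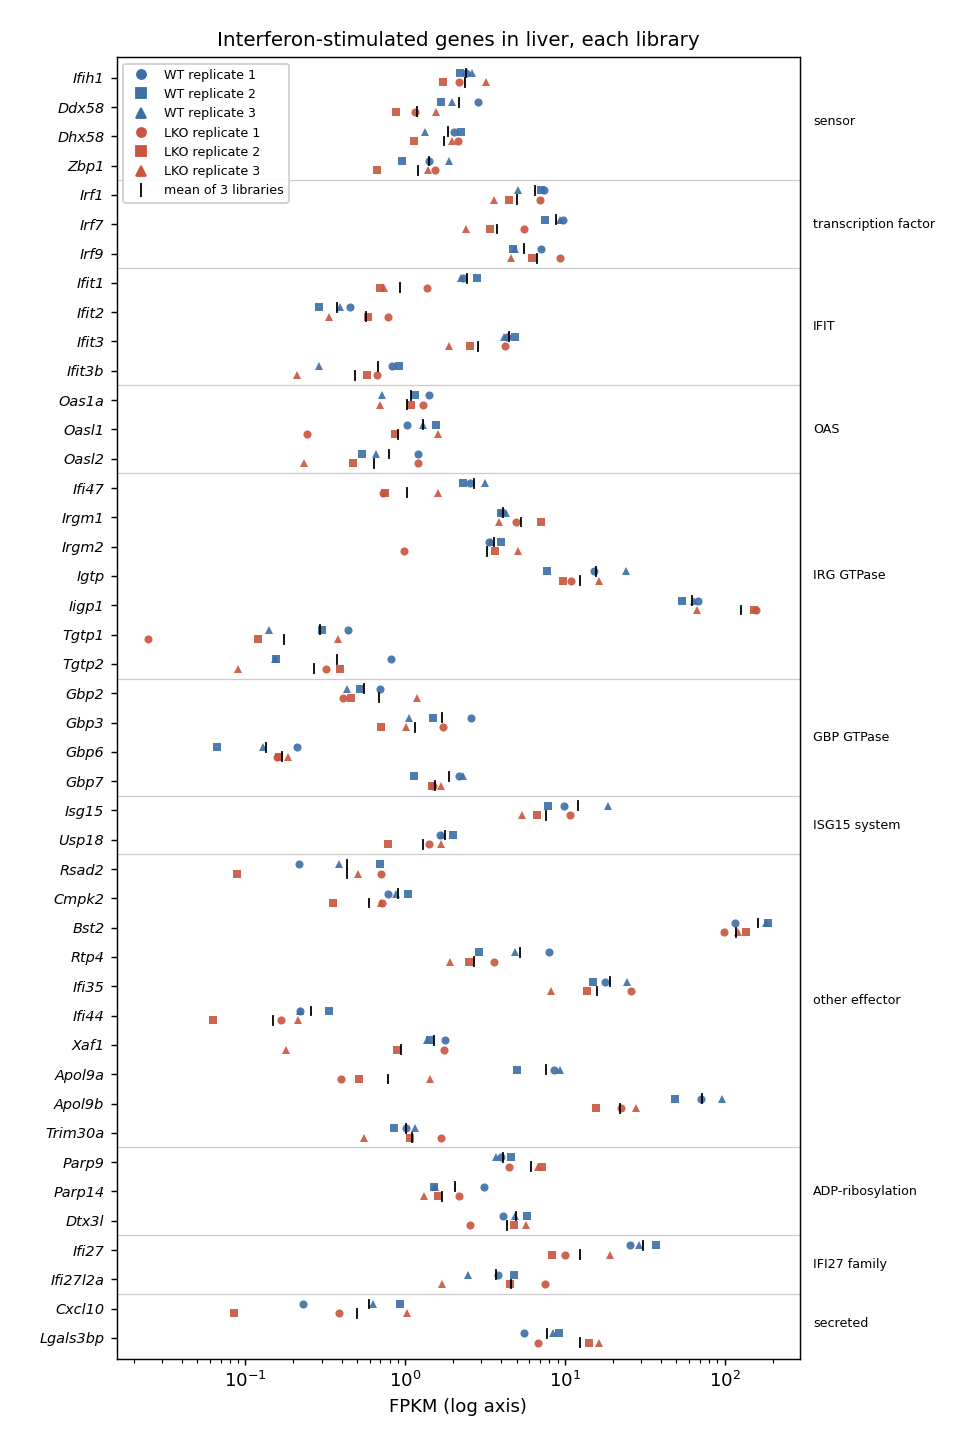
FPKM of all 44 members in each library on a log axis, grouped by role, with WT in blue, LKO in red and the replicate shown by the marker. Black bars are means of 3 libraries. For Apol9a, Apol9b, Ifi27 and Irf7 the red markers lie left of all blue ones, while for Iigp1 LKO replicates 1 and 2 lie to the right and LKO replicate 3 among the blue markers.

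Members placed with type I interferon lay lower as a sum. The summed FPKM of the 31 genes that textbooks place mainly under ISGF3 was 320.1, 369 and 422 in WT and 233, 240.1 and 242 in LKO, with no overlap. Without Bst2 and Apol9b, the highest of them, the sums were 133, 132 and 145 in WT and 112, 88.1 and 92.9 in LKO, again with no overlap. That lack of overlap rests on Ifi27, the highest of the rest in WT. Ifi27 was at 25.7, 37.3 and 29.1 FPKM in WT and 9.98, 8.33 and 19.2 FPKM in LKO. The sums therefore do not show a lower level across the class. The median log2 difference of the 28 tested was -0.28, with 23 of 28 below 0, and it was -0.43 with a pseudocount of 0.1 and -0.54 with voom. The summed FPKM of the 13 genes driven strongly by interferon gamma was 108, 84.2 and 109.7 in WT and 186, 183 and 103 in LKO, so LKO replicates 1 and 2 lay above every WT library. Without Iigp1 the sums were 39.8, 29.7 and 45.1 in WT and 29.1, 29.2 and 36.0 in LKO, which overlapped. The median of the 10 tested was -0.19, with 7 below 0, and it moved to -0.080 without both libraries numbered 1 and to -0.064 without WT replicate 3, against -0.32 with a pseudocount of 0.1 and -0.30 with voom. The difference between the classes was not tested.

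The clearest separation was in the apolipoprotein L genes Apol9a and Apol9b, mouse genes known to be induced by interferon. Apol9a (ENSMUSG00000057346, on the minus strand of chromosome 15 from 77403789 to 77411135 in mm10) was at 8.58, 4.98 and 9.33 FPKM in WT, from 985, 522 and 868 reads, and at 0.397, 0.516 and 1.42 FPKM in LKO, from 30, 48 and 161 reads. Every LKO library lay far below the lowest WT library, and the WT mean was 9.80 times the LKO mean, a log2 difference of -2.28 ± 0.32 (SE; limma, 95% interval -3.03 to -1.54, adjusted p = 0.131). Apol9b (ENSMUSG00000068246, on the plus strand of chromosome 15 from 77729039 to 77736382 in mm10) was at 70.8, 48.7 and 96.9 FPKM in WT and at 22.5, 15.6 and 28.0 FPKM in LKO. Its groups did not overlap either, and for both genes WT replicate 2 was the lowest WT library and LKO replicate 3 the highest LKO library. Its log2 difference was -1.65 ± 0.36 (SE; limma adjusted p = 0.226). The adjusted p of Apol9a ranged from 0.0515 (without LKO replicate 3) to 0.532 over the alternative fits. Apol9a and Apol9b are near copies: 20.2% of the 31-base stretches of Apol9a transcripts and 64.9% of those of Apol9b also occur in another gene, most often in each other, so how reads were split between them is uncertain. Both lie on chromosome 15, the chromosome of Arid2, at 18.9 and 18.6 Mb from it.

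The response element that names the class was common in the promoters of the members. An ISRE-type core was searched on both strands as the word GAAA occurring again after any 2 bases, in RefSeq promoter windows (GRCm38.p6, 250 bases before to 50 after each start), where 34 of the 44 members had an entry. It was found in 21 of the 34, or 61.8% (95% Clopper-Pearson interval 43.6% to 77.8%), against 3.99% of 27025 genes with a window of the same length. Near copies such as Apol9a and Apol9b count as separate promoters here, and the list is not a random draw. The interval is therefore only a rough guide. A GAS-type core, TTCNNNGAA, which reads the same on both strands and whose matches may share bases with those of the first, was found in 10 of 34 (29.4%) against 9.55%. The following stretches, the 150 bases before a RefSeq start, 5′ to 3′ on the strand of the gene with the ISRE-type cores in capitals, are shown because they set 3 members whose groups did not overlap (Apol9a, Apol9b and Ifit1) beside 3 with the same core whose groups overlapped (Isg15, Bst2 and Irgm1).
Apol9a, chr15:77411081-77411230, minus strand: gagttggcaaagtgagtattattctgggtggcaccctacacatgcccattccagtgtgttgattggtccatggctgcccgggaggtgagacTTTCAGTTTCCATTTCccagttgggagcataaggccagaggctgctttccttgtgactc
Apol9b, chr15:77728922-77729071, plus strand: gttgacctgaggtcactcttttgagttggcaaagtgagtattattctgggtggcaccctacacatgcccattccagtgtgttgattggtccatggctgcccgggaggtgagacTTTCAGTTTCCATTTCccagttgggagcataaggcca
Ifit1, chr19:34640739-34640888, plus strand: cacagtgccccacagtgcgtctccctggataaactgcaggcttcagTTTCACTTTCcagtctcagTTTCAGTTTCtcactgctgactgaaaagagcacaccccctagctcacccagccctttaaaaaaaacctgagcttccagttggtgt
Isg15, chr4:156200819-156200968, minus strand: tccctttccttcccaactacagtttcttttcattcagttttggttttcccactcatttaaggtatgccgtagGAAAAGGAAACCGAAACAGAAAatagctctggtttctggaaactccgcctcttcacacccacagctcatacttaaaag
Bst2, chr8:71537473-71537622, minus strand: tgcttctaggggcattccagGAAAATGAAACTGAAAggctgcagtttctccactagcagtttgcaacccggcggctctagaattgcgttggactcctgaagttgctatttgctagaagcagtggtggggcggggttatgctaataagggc
Irgm1, chr11:48871421-48871570, minus strand: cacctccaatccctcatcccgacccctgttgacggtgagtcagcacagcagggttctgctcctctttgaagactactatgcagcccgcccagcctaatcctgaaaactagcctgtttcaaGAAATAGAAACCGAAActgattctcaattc
The promoter windows of Apol9a and Apol9b shared an identical run of 278 bases, which holds the core. Ifit1 held 2 separate cores and Isg15 a run of overlapping ones. Among the 8 members with non-overlapping groups, a core lay in the windows of Apol9a, Apol9b, Ifit1 and Ddx58, these letters were not in the windows of Irf7, Ifi47 and Cmpk2, and Ifi27 had no entry. Among the members whose groups overlapped, the core was in the windows of Isg15, Bst2, Irgm1, Ifit3 and Gbp3, among others, and not in those of Irf1, Irf9 and Xaf1.

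All 4 sensors of foreign nucleic acid had log2 differences below 0, and Ddx58 alone among them had groups that did not overlap. The differences of Ifih1, Dhx58 and Zbp1 were small (-0.040, -0.063 and -0.14) and changed sign in some alternative fits. Ddx58, which encodes the RNA sensor RIG-I (ENSMUSG00000040296, on the minus strand of chromosome 4 from 40203773 to 40239828 in mm10), was at 2.85, 1.68 and 1.98 FPKM in WT and at 1.16, 0.871 and 1.55 FPKM in LKO, with no overlap but only a narrow gap between WT replicate 2 and LKO replicate 3. Its log2 difference was -0.52 ± 0.23 (SE; limma adjusted p = 0.561). Ifih1, which encodes the related sensor MDA5, was at 2.39, 2.21 and 2.63 FPKM in WT and at 2.18, 1.72 and 3.22 FPKM in LKO, where LKO replicate 3 was the highest of all libraries and LKO replicate 2 the lowest. The 95% interval of its log2 difference, -0.58 to 0.50, covers both directions. Dhx58, which encodes LGP2, a regulator of both, was at 2.03, 2.22 and 1.33 FPKM in WT and 2.14, 1.13 and 1.98 FPKM in LKO. Zbp1, a sensor of Z-form nucleic acid that can start necroptosis, was at 1.41, 0.950 and 1.89 FPKM in WT and 1.54, 0.671 and 1.39 FPKM in LKO. For Dhx58 and Zbp1 the groups overlapped, with LKO replicate 2 the lowest library.

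Of the transcription factors, Irf7 stood apart from Irf1 and Irf9 in its values. Irf7, the factor that amplifies type I interferon production (ENSMUSG00000025498, on the minus strand of chromosome 7 from 141262706 to 141266481 in mm10), was at 9.78, 7.51 and 9.31 FPKM in WT, from 712, 499 and 549 reads, and at 5.55, 3.41 and 2.40 FPKM in LKO, from 266, 201 and 172 reads. The groups did not overlap, and LKO replicate 3 was the lowest. The fit gave a log2 difference of -1.09 ± 0.30 (SE; limma, 95% interval -1.79 to -0.39, adjusted p = 0.320). Irf7 lies 2602 bases downstream of Cdhr5 on the same strand. Cdhr5 is a protocadherin gene that fell in the same fit, at 32.6, 28.0 and 28.4 FPKM in WT and 0.747, 2.03 and 0.711 FPKM in LKO (limma adjusted p = 0.0114), and whether the neighbours are linked was not tested. Irf1, the mediator of many interferon gamma responses, was at 7.37, 7.08 and 5.12 FPKM in WT and 6.95, 4.49 and 3.63 FPKM in LKO, where LKO replicate 1 lay among the WT libraries. Irf9, the DNA-binding part of ISGF3, was at 7.12, 4.74 and 4.85 FPKM in WT and 9.31, 6.22 and 4.61 FPKM in LKO, so its LKO mean was the higher one, with LKO replicate 1 the highest library. Without that library its log2 difference went from 0.21 to -0.026.

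The IFIT proteins bind foreign RNA and block its translation, and their genes form a cluster on chromosome 19. Ifit1 (ENSMUSG00000034459, on the plus strand of chromosome 19 from 34640871 to 34650009 in mm10) was at 2.30, 2.80 and 2.24 FPKM in WT, from 118, 131 and 93 reads, and at 1.36, 0.698 and 0.733 FPKM in LKO, from 46, 29 and 37 reads. All WT libraries lay above all LKO libraries, with LKO replicate 1 the closest. Its log2 difference was -0.85 ± 0.22 (SE; limma, 95% interval -1.35 to -0.35, adjusted p = 0.290). Ifit3 was at 4.34, 4.89 and 4.18 FPKM in WT and 4.20, 2.57 and 1.87 FPKM in LKO, and LKO replicate 1 lay inside the WT range by a small margin, while the other LKO libraries were lower. Ifit3b, its near copy, was at 0.830, 0.910 and 0.288 FPKM in WT and 0.669, 0.576 and 0.211 FPKM in LKO, where replicate 3 was the lowest library in both genotypes. Ifit3 and Ifit3b shared 61.8% and 55.3% of their 31-base stretches with other genes, so their separate values are uncertain. Ifit2, under the filter, was at 0.449, 0.290 and 0.391 FPKM in WT and 0.782, 0.586 and 0.335 FPKM in LKO, from between 20 and 39 reads, and did not share the order of Ifit1.

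The OAS family makes or resembles the enzymes that activate RNase L on double-stranded RNA. Oasl1 was at 1.03, 1.57 and 1.30 FPKM in WT and 0.241, 0.858 and 1.61 FPKM in LKO, with LKO replicate 1 the lowest of all libraries and LKO replicate 3 the highest. Oasl2 was at 1.2, 0.535 and 0.653 FPKM in WT and 1.21, 0.472 and 0.231 FPKM in LKO. Oas1a was at 1.40, 1.15 and 0.713 FPKM in WT and 1.29, 1.09 and 0.698 FPKM in LKO, and 68.8% of its 31-base stretches occur in other genes, mainly Oas1g. The groups overlapped for all 3 genes, and the log2 differences were -0.33, -0.16 and -0.040 (limma adjusted p = 0.807, 0.919 and 0.977).

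The immunity-related GTPases (IRG), which attack the vacuoles of intracellular pathogens, held the largest positive log2 difference of the list, for Iigp1, and one of its 8 non-overlapping members, Ifi47. Iigp1, an effector GTPase (ENSMUSG00000054072, on the plus strand of chromosome 18 from 60376027 to 60392634 in mm10), was at 68.2, 54.5 and 64.7 FPKM in WT and at 157, 154 and 67.3 FPKM in LKO. LKO replicates 1 and 2 lay far above WT, and LKO replicate 3 lay inside the WT range. Its log2 difference was 0.91 ± 0.40 (SE; limma, 95% interval -0.019 to 1.84, adjusted p = 0.556), with 1.31 as its value without LKO replicate 3 (limma adjusted p = 0.148). Ifi47 (ENSMUSG00000078920, on the plus strand of chromosome 11 from 49076587 to 49096974 in mm10) was at 2.56, 2.30 and 3.18 FPKM in WT and at 0.732, 0.750 and 1.62 FPKM in LKO, from 122, 100 and 123 and 23, 29 and 76 reads. Its groups did not overlap, and LKO replicate 3 was the LKO library closest to WT, at a log2 difference of -0.88 ± 0.24 (SE; limma adjusted p = 0.320). Its exons overlap those of Olfr56 on the same strand and Gm12188 on the other, and the strand setting of the authors' counting is not known here.

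The regulators among the IRG proteins, which keep the effectors inactive on the cell's own membranes, showed no common order. Irgm1 was at 4.04, 4.01 and 4.29 FPKM in WT and 4.96, 7.11 and 3.85 FPKM in LKO, with LKO replicate 2 the highest and LKO replicate 3 the lowest of all libraries. Irgm2 was at 3.37, 4.01 and 3.44 FPKM in WT and 0.981, 3.68 and 5.06 FPKM in LKO, so its LKO libraries lay on both sides of WT. Igtp, which overlaps Irgm2 on the same strand, was at 15.3, 7.70 and 24.2 FPKM in WT and 11, 9.81 and 16.3 FPKM in LKO, where the WT libraries spread more widely than the LKO libraries. The effectors Tgtp1 and Tgtp2 were under the filter, between 0.0246 and 0.437 FPKM and between 0.0896 and 0.812 FPKM. They shared 84.4% and 90.5% of their 31-base stretches with other genes, mainly each other, so nothing was read from either.

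The guanylate-binding proteins (GBP) are a second family of GTPases against intracellular pathogens. All GBP genes among the members had overlapping groups, unlike Gbp11, which is outside the members and is given below. Gbp3 was at 2.57, 1.5 and 1.06 FPKM in WT and 1.74, 0.705 and 1.02 FPKM in LKO, Gbp7 at 2.19, 1.14 and 2.29 and 1.49, 1.47 and 1.69 FPKM, and Gbp2 at 0.701, 0.520 and 0.433 and 0.407, 0.458 and 1.19 FPKM. The log2 differences were -0.32, -0.15 and 0.093 (limma adjusted p = 0.807, 0.906 and 0.949), and for Gbp2 LKO replicate 3 was the highest library. Gbp6 stayed between 0.0668 and 0.209 FPKM, under the filter.

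Isg15, a ubiquitin-like protein that is attached to other proteins, was at 9.88, 7.90 and 18.5 FPKM in WT and 10.7, 6.68 and 5.43 FPKM in LKO. LKO replicates 2 and 3 were the lowest libraries and WT replicate 3 the highest, but LKO replicate 1 lay among the WT libraries. Usp18, the protease that removes ISG15 and restrains signalling at the type I receptor, was at 1.65, 2.0 and 1.70 FPKM in WT and 1.41, 0.780 and 1.68 FPKM in LKO, and LKO replicate 3 lay inside the WT range. The log2 differences were -0.57 ± 0.38 and -0.30 ± 0.22 (SE; limma adjusted p = 0.729 and 0.766). That of Isg15 was -0.24 without WT replicate 3, and that of Usp18 -0.13 without LKO replicate 2.

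The other antiviral effectors mostly lay lower, with 7 of 8 tested below 0. Rtp4, a chaperone with antiviral activity, was at 7.93, 2.91 and 4.87 FPKM in WT and 3.62, 2.52 and 1.90 FPKM in LKO. Only LKO replicate 1 reached the WT range (log2 difference -0.71 ± 0.35 SE, limma adjusted p = 0.607, or a difference of -0.41 without WT replicate 1). Xaf1, which acts in cell death, was at 1.77, 1.43 and 1.38 FPKM in WT and 1.75, 0.887 and 0.180 FPKM in LKO, with LKO replicate 3 far below all other libraries. Bst2 was at 116, 188 and 181 FPKM in WT and 98.8, 136 and 121 FPKM in LKO. WT replicate 1 lay below LKO replicates 2 and 3, so the groups overlapped, and its log2 difference was -0.42 ± 0.33 (SE; limma adjusted p = 0.774). Cmpk2, a nucleotide kinase gene next to Rsad2, was at 0.785, 1.04 and 0.877 FPKM in WT and 0.719, 0.353 and 0.708 FPKM in LKO, without overlap, from 63, 76 and 57 and 38, 23 and 56 reads. The step between the groups was small beside the spread within LKO (log2 difference -0.26 ± 0.20 SE, limma adjusted p = 0.767, or a difference of -0.15 without LKO replicate 2).

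Rsad2, which encodes viperin and lies head to head with Cmpk2, was under the filter at 0.215, 0.695 and 0.384 FPKM in WT and 0.708, 0.0885 and 0.510 FPKM in LKO and overlapped widely. Ifi44, also under the filter, was at 0.220, 0.334 and 0.219 FPKM in WT and 0.167, 0.0626 and 0.215 FPKM in LKO, where all LKO libraries lay below WT, LKO replicate 3 only just. Ifi35 was at 17.7, 14.9 and 24.6 FPKM in WT and 26.0, 13.7 and 8.23 FPKM in LKO, where LKO replicate 1 was the highest library of all and LKO replicate 3 the lowest. Trim30a, a ubiquitin ligase that restrains inflammatory signalling, was at 1.01, 0.857 and 1.15 FPKM in WT and 1.67, 1.07 and 0.551 FPKM in LKO, with the same order of the LKO libraries as Ifi35. Its log2 difference of 0.031 turned below 0 with scaling to library totals (-0.036).

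Parp9 and Dtx3l, whose proteins form an ADP-ribosylating ubiquitin ligase complex and whose genes overlap head to head, had different orders. Parp9 was at 3.98, 4.60 and 3.71 FPKM in WT and 4.48, 7.17 and 6.81 FPKM in LKO, with LKO replicates 2 and 3 above every WT library. Dtx3l was at 4.08, 5.81 and 4.88 FPKM in WT and 2.56, 4.80 and 5.75 FPKM in LKO, where only LKO replicate 1 lay outside the WT range. Parp14, a mono-ADP-ribosyltransferase, was at 3.13, 1.52 and 1.54 FPKM in WT and 2.18, 1.62 and 1.31 FPKM in LKO and overlapped. The log2 differences were 0.47 ± 0.25, -0.18 ± 0.30 and -0.15 ± 0.27 (SE; limma adjusted p = 0.635, 0.910 and 0.919).

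Ifi27 and Ifi27l2a, small membrane proteins of one family, lie 1928 bases apart on chromosome 12 and differed in how their libraries ranked. Ifi27 (ENSMUSG00000064215, on the plus strand of chromosome 12 from 103434211 to 103440239 in mm10) was at 25.7, 37.3 and 29.1 FPKM in WT, from 728, 962 and 666 reads, and at 9.98, 8.33 and 19.2 FPKM in LKO, from 186, 191 and 536 reads. All LKO libraries lay below all WT libraries, with LKO replicate 3 the closest (log2 difference -1.30 ± 0.36 SE, limma 95% interval -2.13 to -0.46, adjusted p = 0.320). No 31-base stretch of Ifi27 occurs in another gene. Ifi27l2a was at 3.81, 4.79 and 2.49 FPKM in WT and 7.48, 4.56 and 1.71 FPKM in LKO, so LKO replicate 1 was the highest and LKO replicate 3 the lowest of all libraries. Its reads were few, between 15 and 44 per library.

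Of the secreted products, Lgals3bp, a glycoprotein that binds galectins, was at 5.52, 9.22 and 8.41 FPKM in WT and 6.75, 14.1 and 16.4 FPKM in LKO, with LKO replicates 2 and 3 above every WT library and LKO replicate 1 among them. Cxcl10, a chemokine for activated T cells, was at 0.230, 0.934 and 0.625 FPKM in WT and 0.384, 0.0852 and 1.03 FPKM in LKO, from between 3 and 44 reads, and its lowest and highest libraries were both LKO. The log2 differences were 0.57 ± 0.37 and -0.11 ± 0.30 (SE; limma adjusted p = 0.721 and 0.950).

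**Figure D3:**
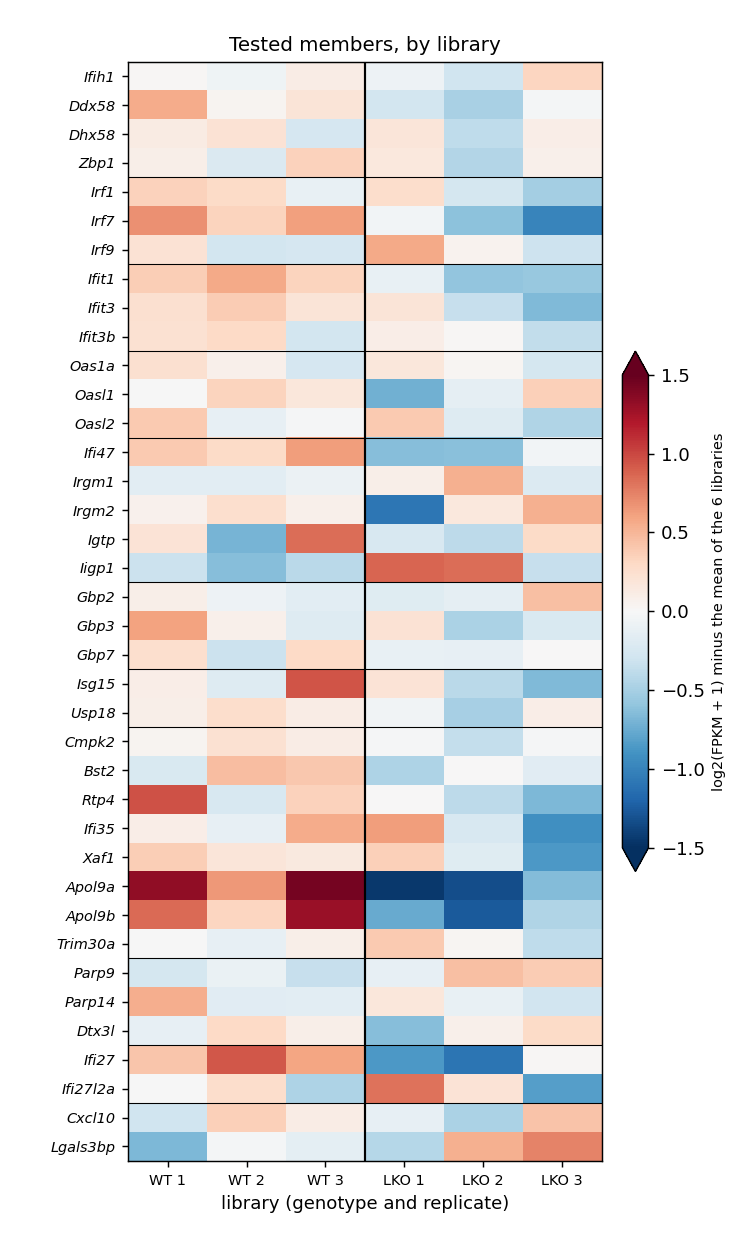
Log2(FPKM + 1) of the 38 tested members in each of the 6 libraries, minus the mean of the gene over the 6 libraries, with lines between roles and between genotypes. Colours end at -1.5 and 1.5. Apol9a and Apol9b change colour at the line between genotypes, while Iigp1 is high in LKO replicates 1 and 2 alone and most other rows are pale or mixed.

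The LKO libraries differed among themselves. Of the 38 tested members, 15 lay below every WT library in LKO replicate 1, 22 in LKO replicate 2 and 23 in LKO replicate 3, where 31.2%, 29.6% and 30.4% of all genes did. Above every WT library were 7, 4 and 7 members, where 31.4%, 34.3% and 37.4% of all genes were. LKO replicate 1 was the highest of the LKO libraries for 20 members, LKO replicate 3 for 15 and LKO replicate 2 for 3. Reads of mitochondrial genes, which also move with RNA quality, made up 27.6, 7.72 and 4.76% of the LKO libraries and 20.7, 10.2 and 18.5% of the WT libraries, and their part in these differences was not tested.

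Upstream of these genes, transcripts of the interferons themselves were listed at 0 or close to it. Of 8 interferon genes looked up, Ifna2, Ifna4, Ifnb1, Ifnl2, Ifnl3 and Ifne were listed at 0 FPKM in every library, Ifng was at 0.0801 FPKM (2 reads) in WT replicate 1 and at 0 elsewhere, and Ifnk reached 0.0795 FPKM (1 read). Trex1, an exonuclease gene, was likewise listed at 0 in every library, so these zeros are given only as listed. For a 1 kb transcript a count of 0 allows a level of up to 0.156 to 0.236 FPKM depending on the library, for counting error alone.

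The genes of the IFNAR and IFNGR receptors and their kinases were present in all libraries. Ifnlr1, a subunit of the type III receptor, was under the filter with 0 reads in WT replicate 3 and LKO replicate 1. Of 37 signalling genes 25 were tested with limma, and 0 rose and 0 fell, where 0.0428% of all genes were called. At an unadjusted limma p under 0.05 there were 0, against 4.93% of all genes lower and 4.28% higher. The median log2 difference was 0.10. The type I receptor genes Ifnar1 and Ifnar2 were at 6.16, 5.82 and 5.24 and 6.28, 10.5 and 8.40 FPKM in WT and at 5.23, 5.94 and 4.69 and 8.82, 10.7 and 11.7 FPKM in LKO. The type II receptor genes Ifngr1 and Ifngr2 were at 4.61, 2.40 and 2.68 and 2.16, 3.46 and 1.70 FPKM in WT and at 5.36, 6.31 and 3.96 and 1.99, 5.82 and 5.35 FPKM in LKO. All 4 overlapped between the groups, with log2 differences of -0.10, 0.30, 0.57 and 0.59. Jak1, the kinase shared by both receptors, was at 11.1, 8.50 and 8.75 FPKM in WT and 14.1, 14.7 and 11.8 FPKM in LKO and lay higher in every LKO library (log2 difference 0.48 ± 0.24 SE, limma adjusted p = 0.614). Jak2 was at 3.0, 2.10 and 2.27 FPKM in WT and 3.38, 2.70 and 2.84 FPKM in LKO, and Tyk2 at 2.98, 2.15 and 2.10 and 2.45, 1.48 and 2.17 FPKM, and both overlapped.

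Stat2, which carries the type I signal to the nucleus, overlapped between the genotypes. It was at 29.7, 10.2 and 11.9 FPKM in WT and 21.1, 12.4 and 7.11 FPKM in LKO, where replicate 1 was the highest library in both genotypes. Among the repressors, Socs1, which blocks JAK kinases, was at 0.589, 0.293 and 0.132 FPKM in WT and 2.38, 1.67 and 0.163 FPKM in LKO. LKO replicates 1 and 2 were the highest and LKO replicate 3 was within WT, which is also the order of Iigp1 (limma adjusted p = 0.650). Among the sensing adaptors, Myd88 was at 6.89, 6.02 and 5.72 FPKM in WT and 12.4, 14 and 6.07 FPKM in LKO, again with LKO replicate 3 within WT (limma adjusted p = 0.620).

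**Figure D4:**
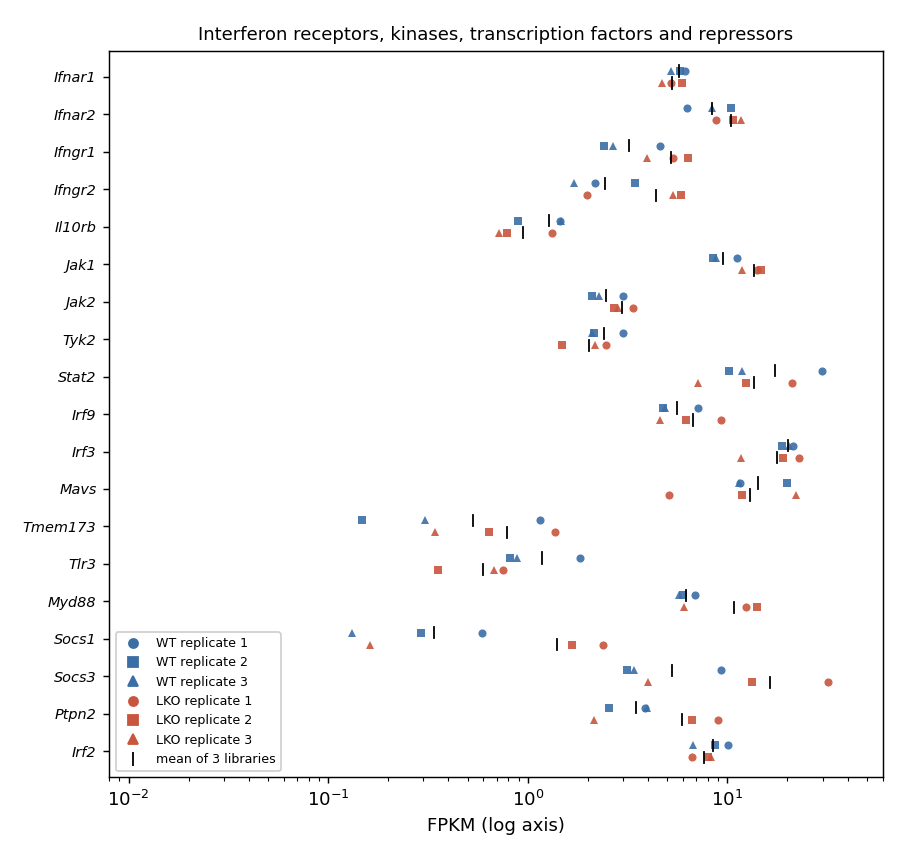
FPKM of 19 interferon receptor, kinase, transcription factor, adaptor and repressor genes in each library on a log axis, with WT in blue, LKO in red, the replicate shown by the marker and black bars for means of 3 libraries. Jak1 lies to the right in all LKO libraries, and for Socs1 and Socs3 LKO replicate 3 lies among the WT markers.

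A second list of 61 interferon-stimulated genes, none of them among the 44 and also chosen with earlier results known, lay closer to all genes. Of 50 tested with limma, 0 rose and 0 fell, where 0.0428% of all genes were called. At an unadjusted limma p under 0.05, 2 lay lower and 0 higher, against 4.93% of all genes lower and 4.28% higher. In this list 32 of 50 were below 0 (64%), against 45.9% of all genes, and the median log2 difference was -0.12. For 5 genes (B2m, Gbp11, Psmb9, Psmb10 and Ube2l6) every LKO library lay below every WT library, which is 10% against 7.42% of all genes, and for 2 (Daxx and Slfn2) above. Psmb9, an immunoproteasome subunit, was at 3.91, 3.70 and 5.02 FPKM in WT and 1.79, 2.40 and 3.09 FPKM in LKO (limma adjusted p = 0.490). Gbp11 was at 15.6, 14 and 35.9 FPKM in WT and 10.6, 0.594 and 9.64 FPKM in LKO, where the difference was widest in LKO replicate 2 (limma adjusted p = 0.533). Daxx, a nuclear corepressor, was at 3.54, 2.73 and 2.05 and 4.92, 3.79 and 4.10 FPKM (limma adjusted p = 0.603), and the chemokine gene Ccl5 at 2.59, 1.95 and 0.667 and 0.164, 0.933 and 0.877 FPKM (limma adjusted p = 0.608). Without LKO replicate 1 the median was -0.26, and without WT replicate 1 it was -0.0026. The difference between the lists was not tested.

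Markers of cells other than hepatocytes were read beside these values. The summed level of 10 Kupffer cell markers was between 26.8 and 68.7 FPKM in WT and between 26.4 and 74.9 in LKO, where 0 of 9 tested were separated and 8 of 9 log2 differences were above 0, with a median of 0.13. The sum of 6 endothelial markers was between 20.8 and 30.0 FPKM in WT and between 12.4 and 32.1 in LKO, with 5 of 6 differences below 0. Markers of T and NK cells (12 genes) summed to at most 2.48 FPKM and of dendritic cells (6 genes) to at most 6.39 FPKM, with overlapping groups. The sum of 6 B and plasma cell markers was between 2.62 and 6.09 FPKM in WT and between 0.614 and 1.66 in LKO, without overlap, so these low transcripts lay lower in LKO, as most members did. The sum of 7 neutrophil markers was between 0.803 and 3.82 FPKM in WT and was 16.2, 11.4 and 3.27 FPKM in LKO, the order seen for Iigp1, and Ngp was at 0 in every library. The part of these cells in the values of the interferon-stimulated genes was not tested.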

How the data were processed

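Total RNA from liver was made into 6 Illumina libraries, 3 labelled WT and 3 labelled LKO, and groups and replicate numbers come from the sample titles. Per the submitters' processing notes, the build was mm10 and the tools included featureCounts 1.5.0-p3, HISAT2 2.0.5, CASAVA and DESeq2 1.20.0; the sources used here do not say which step used which, or give the annotation release and strand setting. The authors deposited FPKM, 1 value per gene and library. The unit was read from the values: FPKM times merged exon length in GENCODE vM21 (54495 of 54532 identifiers) fell on whole multiples of 1 step per library for 96.1% to 96.4% of values above 0, within 0.05 read. The steps gave the read numbers quoted, and the library scale behind them followed median-of-ratios size factors.

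The test was limma-trend with a robust prior (limma 3.58.1, R 4.3.3) on log2(FPKM + 1) of genes averaging 0.5 FPKM or more, genotype as the only term and Benjamini-Hochberg adjustment at a threshold of 0.05 over all genes tested. On simulated data with 11459 genes, the fit called 4 of 57 genes changed 2-fold, 59 of 73 changed 4-fold, 70 of 70 changed 16-fold and 13 unchanged genes. A member that differed 2-fold would thus mostly be missed. The simulation gave every gene the same median dispersion and changed no gene with few reads, so its shares can be too high for these data. In the real fit Apol9a, with a WT mean 9.80 times the LKO mean, was not called.

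The members and lists were chosen with earlier results of these data known. Named genes are, per role, up to 4 tested members with the smallest p and any with a difference above 0, the genes of the receptor pathway, and up to 4 genes with the smallest p of each other list. Socs3, Cdhr5 and the remaining members were added after their values were seen, and a gene of the receptor pathway is not reported here. Copies were counted as 31-base stretches of spliced transcripts shared with another gene. Promoter windows are from RefSeq (GRCm38.p6). Alternatives were no filter, a filter at 1 FPKM, a pseudocount of 0.1, quantile normalization, scaling to library totals, voom on the recovered reads, the replicate number as a block, both libraries numbered 1 left out, and each library left out in turn. The median without members that have at least 5% shared stretches was added after seeing the data. Python 3.11.15 with matplotlib 3.10.9 and pandas 2.3.3 drew the figures.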

Additional observations from a re-analysis of the deposited data

How the results depend on the processing

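No member passed the threshold in any of the 14 alternative fits, and 23 of the 38 tested members kept their sign in all of them, 19 below 0 and 4 above (Irgm1, Iigp1, Parp9 and Lgals3bp). All genes called numbered 5, against 2 with both libraries numbered 1 left out, 1 with no filter, 3 with quantile normalization, and 0 to 17 with 1 library left out. For each library, deviations from the gene means of its genotype were correlated between WT and LKO. Same-numbered libraries gave 0.49, 0.30 and -0.023, and the others gave -0.58 to 0.45. These values cannot tell whether the numbers pair the samples. The replicate block gave 0 calls. The median of all members was -0.41 with a pseudocount of 0.1 and -0.43 with voom, and -0.27 to -0.16 with 1 library left out. Type I led members had medians of -0.43 and -0.54 under these 2 settings, and type II led members -0.32 and -0.30, -0.28 with scaling to library totals, -0.080 with both libraries numbered 1 left out, and -0.24 to -0.064 with 1 library left out. The median of the other interferon-stimulated genes was -0.30 with voom and -0.26 to -0.0026 with 1 library left out. The count of 8 members below WT in every LKO library stood beside 7.42% of all genes. Without both libraries numbered 1 it became 18, with 3 above, where 21.6% of all genes were below and 25.2% above. With 1 library left out it was 8 to 16, where 9.11% to 17.3% of all genes were below. Much of the rise in the count thus also occurs over all genes when libraries are dropped. The count stays 8 under the block or another pseudocount, which do not change the order of libraries. With the core lengthened by CT at its end, the share of promoters was 41.2%, against 0.303% of all genes.

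Some log2 differences changed sign. Oas1a was 0.048 with quantile normalization, Irgm2 0.18 and Ifi27l2a -0.21 without both libraries numbered 1, and Trim30a -0.16, -0.036 and -0.062 without both libraries numbered 1, with scaling to library totals and with voom. With 1 library left out, the ranges were -0.21 to 0.10 for Ifih1, -0.20 to 0.11 for Dhx58, -0.29 to 0.046 for Zbp1, -0.026 to 0.41 for Irf9, -0.18 to 0.082 for Oas1a, -0.40 to 0.025 for Oasl2, -0.59 to 0.21 for Irgm2 and -0.63 to 0.14 for Igtp. They were -0.11 to 0.21 for Gbp2, -0.76 to 0.018 for Ifi35, -0.16 to 0.23 for Trim30a, -0.28 to 0.082 for Parp14, -0.37 to 0.090 for Dtx3l, -0.25 to 0.58 for Ifi27l2a, -0.36 to 0.094 for Cxcl10, -0.65 to 0.16 for Stat2 and -0.19 to 0.12 for Arid2. Beside Isg15, Usp18, Rtp4 and Cmpk2, ranges that kept their sign but moved by over 1.5 times from the value of all 6 libraries were -0.56 to -0.17 for Irf1, -0.77 to -0.34 for Ifit3, -0.35 to -0.026 for Ifit3b, -0.59 to -0.056 for Oasl1, 0.073 to 0.44 for Irgm1, -0.51 to -0.10 for Gbp3, -0.35 to -0.039 for Gbp7, -0.64 to -0.30 for Bst2, -0.76 to -0.15 for Xaf1 and 0.34 to 0.92 for Lgals3bp. The cause of these moves was not tested. Depth limits the low members most, since the 6 under the filter had 1 to 53 reads per library.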
